A study of Mus musculus with 6 samples.

Results

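Scavenger and efferocytosis receptors are the surface proteins with which macrophages take up modified lipoproteins, microbes, glycoproteins and dying cells, and their transcripts were followed as mouse macrophages were turned towards osteoclasts. The set held 10 genes (Cd36, Scarb1, Msr1, Marco, Mrc1, Cd163, Stab1, Olr1, Mertk and Axl), matched by gene symbol to 10 of the 24940 rows of the RNA-seq table. All 10 were among the 11595 genes tested, which had a mean of at least 0.5 RPKM, a measure of reads scaled to transcript length and to the mapped reads of the library, over the 6 libraries. Cd163 and Olr1 passed that minimum only through the libraries without RANKL, since over the 4 libraries with RANKL they averaged 0.445 and 0.134 RPKM.

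The cells were bone marrow-derived macrophages (BMMs), the adherent cells grown from mouse marrow with M-CSF, the cytokine that macrophages need to survive, for 3 days. Each condition was then held for 3 days in 30 ng/mL M-CSF: M-CSF alone (-R), with 100 ng/mL RANKL, the cytokine that drives osteoclast formation (+R), or with the same RANKL and 10 μg/mL of a methanolic leaf extract (LE) of the shrub Abeliophyllum distichum (R+LE). There were 2 libraries per condition, and nothing in the sources says that they came from separate cultures or animals, so p-values measure the spread between these libraries, which may be technical. The labels name C57BL/6 mice 6 to 8 weeks old, while the methods of the study name another strain, ICR, and male mice. No genotype was altered, no condition held LE without RANKL, and LE is a mixture whose components were not separated here.

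As background, scavenger receptors bind polyanionic or oxidised ligands and bring them into the cell. Efferocytosis receptors recognise phosphatidylserine on apoptotic cells, directly or through bridging proteins such as Gas6, protein S and Mfge8. In bone, resident macrophages carry many of these receptors, while the osteoclasts that form from the same precursors are specialised for dissolving mineral and matrix.

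The 6 libraries held 29390436 to 34846201 mapped reads. The ribosomal precursor Rn45s took 4.97 to 6.83% of the gene reads without RANKL, 10.9 to 11.1% with it and 11.2 to 13.5% when LE was added. All 8 macrophage markers were detected, and their summed level was 6801 to 7387 RPKM without RANKL, 2703 to 3467 RPKM with it and 3784 to 4229 RPKM when LE was added. The 8 osteoclast markers summed to 43.2 to 44.8, 1866 to 2123 and 329 to 380.0 RPKM in the same order. Most of the macrophage sum was Lyz2, at 5062 and 5571 RPKM in -R, and the 8 macrophage markers did not all move with it. Itgam was higher in +R (100.8 and 79.7 RPKM) than in -R (69.6 and 71.4). Cd68 was lower in R+LE (376 and 297 RPKM) than in +R (468 and 422). Neutrophil and lymphocyte markers were low and highest in -R, at 15.6 to 17.5 RPKM for 8 neutrophil genes against 0.592 to 2.53 with RANKL, and 1.70 to 2.17 RPKM for 8 lymphocyte genes against 0.096 to 0.273 with RANKL. The 8 stromal and osteoblast markers summed to 16.5 to 17.6 RPKM in -R and 8.71 to 15.5 with RANKL, the 6 endothelial markers to 3.57 to 3.72 and 1.30 to 2.69, and dendritic, mast cell and erythroid markers to at most 1.43 RPKM in any library. Of the defining markers, Cd3e, Cpa3, Fcer1a, Hba-a1 and Hbb-bs were at 0 in every library. The part of these shifts in the receptor values was not tested. In RNA from a whole culture, fewer cells that carry a receptor and less of its RNA per cell cannot be told apart.

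The comparison of +R with -R asked how RANKL alone changed the receptors. With RANKL, 9 of the 10 fell at least 2-fold, from 2.76-fold for the mannose receptor Mrc1 to 32.1-fold for the lectin-like receptor Olr1 by the ratio of mean RPKM. Scarb1, the high-density lipoprotein receptor, was the exception, at 25.4 RPKM in -R and 24.2 in +R. A gene was called when limma's Benjamini-Hochberg adjusted p over all tested genes was below 0.05 and the fold was at least 2, and 8.92% of tested genes were called lower. Without Cd163 and Olr1, the pair that entered the test through -R, 7 of 8 were called lower. All 10, Scarb1 included, had both +R libraries below both -R libraries (8 of 8 without that pair), beside 35.0% of tested genes. The median log2 fold change of the 10 was -2.27, beside 0.05 over all tested genes. Fold changes are on the scale of log2(RPKM + 0.5), which understates the change of low genes.

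**Figure D1:**
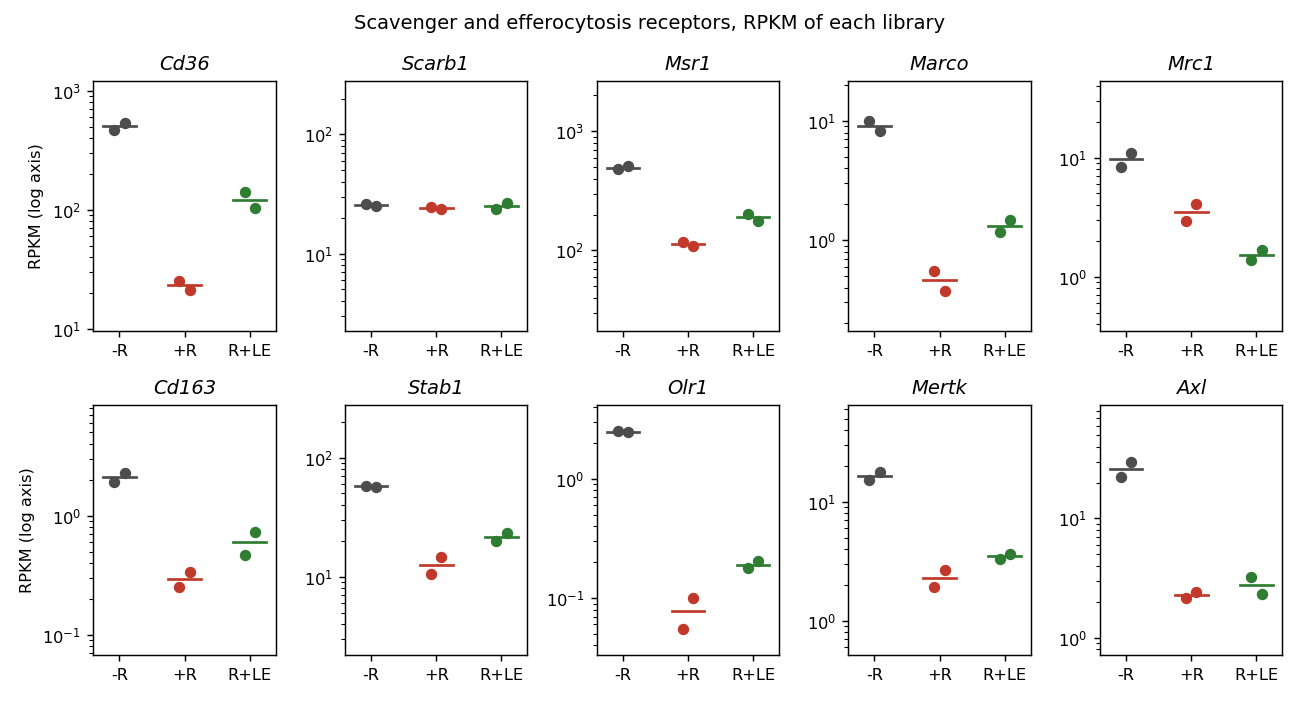
Level of each receptor in RPKM (log axis, each panel spanning the same number of decades) in -R, +R and R+LE, with 1 point per library and a bar at the mean of 2 libraries. In 9 panels both -R points lie above the other 4, while the Scarb1 points stay between 23.6 and 26.5 RPKM.

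Cd36 is a class B scavenger receptor and fatty acid transporter that also binds oxidised lipoprotein and thrombospondin (chr5:17781690-17849792, minus strand, mm10). It measured 468 and 541 RPKM without RANKL, 25.5 and 21.4 with RANKL, and 139.9 and 103 with LE added. The 3 conditions did not overlap, with R+LE between the others. The fall with RANKL was 21.5-fold by mean RPKM, with a log2 fold change of -4.40 (SE 0.18, limma adjusted p = 4.12e-11), and it ranked 11th among the falls of all tested genes. Scarb1 (chr5:125277087-125341094, minus strand), the other class B member, which takes up cholesteryl esters, measured 26.0 and 24.9 RPKM without RANKL, 24.7 and 23.6 with RANKL, and 23.8 and 26.5 with LE added. Both +R values lay just under both -R values, but the log2 fold change was -0.07 with a 95% interval of -0.36 to 0.22 (limma adjusted p = 0.697).

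Msr1, scavenger receptor A, takes up acetylated and oxidised lipoprotein and microbes (chr8:39581700-39642678, minus strand). It measured 483 and 508 RPKM without RANKL, 118 and 109 with RANKL, and 204 and 175 with LE added. It kept the highest RPKM of the 10 with RANKL although it fell 4.37-fold (log2 fold change -2.12, SE 0.16, limma adjusted p = 4.88e-08). Marco, a class A receptor for unopsonised bacteria and particles (chr1:120474538-120505024, minus strand), measured 9.91 and 8.19 RPKM without RANKL, 0.547 and 0.376 with RANKL, and 1.16 and 1.46 with LE added. Its fall with RANKL was 19.6-fold (log2 fold change -3.31, SE 0.18, limma adjusted p = 9.98e-10). A test of whether the class A pair fell by different amounts was not run.

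Mrc1, the mannose receptor CD206, clears glycoproteins and collagen fragments (chr2:14229414-14332023, plus strand). It measured 8.38 and 11.0 RPKM without RANKL, 2.95 and 4.08 with RANKL, and 1.39 and 1.67 with LE added. Its 3 conditions did not overlap either, but here R+LE was the lowest. The fall with RANKL was the smallest of the 9 in RPKM terms (log2 fold change -1.35, SE 0.18, limma adjusted p = 1.78e-05). Cd163, the haemoglobin-haptoglobin receptor (chr6:124304651-124330527, plus strand), measured 1.93 and 2.29 RPKM without RANKL, 0.252 and 0.334 with RANKL, and 0.469 and 0.726 with LE added, a fall of 7.21-fold with RANKL (log2 fold change -1.72, SE 0.21, limma adjusted p = 1.00e-05).

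Stab1, stabilin-1, binds acetylated lipoprotein, SPARC and phosphatidylserine (chr14:31139017-31168641, minus strand). It measured 57.8 and 56.7 RPKM without RANKL, 10.6 and 14.7 with RANKL, and 19.9 and 23.1 with LE added. The fall with RANKL was 4.53-fold (log2 fold change -2.16, SE 0.16, limma adjusted p = 3.90e-08). Stab1 alone among the 10 shares annotated exon bases with another gene, 112 with Nt5dc2 on the opposite strand, and reads of either strand were counted. Olr1, the oxidised lipoprotein receptor LOX-1 (chr6:129485247-129507165, minus strand), measured 2.54 and 2.46 RPKM without RANKL, 0.055 and 0.101 with RANKL, and 0.178 and 0.203 with LE added. Those +R values stand for 6 and 11 reads, and the R+LE values for 20 and 22, so the 32.1-fold fall rests on few reads (log2 fold change -2.38, SE 0.22, limma adjusted p = 3.58e-07).

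Mertk and Axl are receptor tyrosine kinases of the TAM family, which bind phosphatidylserine through Gas6 and, for Mertk, protein S. Mertk (chr2:128698915-128803007, plus strand) measured 15.1 and 17.7 RPKM without RANKL, 1.91 and 2.67 with RANKL, and 3.32 and 3.64 with LE added. Its fall with RANKL was 7.17-fold (log2 fold change -2.61, SE 0.16, limma adjusted p = 4.26e-09). Axl (chr7:25756500-25788733, minus strand) measured 22.0 and 29.9 RPKM without RANKL, 2.15 and 2.43 with RANKL, and 3.19 and 2.30 with LE added. Its fall was 11.3-fold (log2 fold change -3.23, SE 0.17, limma adjusted p = 9.72e-10), and its +R and R+LE libraries overlapped. Mean Axl was above mean Mertk in -R, the libraries of both overlapped in +R, and Mertk was above Axl in both R+LE libraries.

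Promoter sequence was read for 8 of the 10 from RefSeq (build GRCm38.p6). Msr1 and Scarb1 had no entry. The 250 bases before the start site are shown for 3 members with an adjusted p below 0.05 after LE. These stand for the called rise of Cd36, the smaller rise of Marco and the fall of Mrc1, and no member that did not pass is shown. The sequences are written 5′ to 3′ on the strand of the gene, and capitals mark matches to the motifs searched.
Cd36, chr5:17835897-17836146, minus strand: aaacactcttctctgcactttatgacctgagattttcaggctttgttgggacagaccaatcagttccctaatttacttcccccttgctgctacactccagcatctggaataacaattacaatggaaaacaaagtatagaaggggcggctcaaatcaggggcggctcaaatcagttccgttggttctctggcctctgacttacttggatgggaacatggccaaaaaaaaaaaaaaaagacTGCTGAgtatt
Marco, chr1:120505025-120505274, minus strand: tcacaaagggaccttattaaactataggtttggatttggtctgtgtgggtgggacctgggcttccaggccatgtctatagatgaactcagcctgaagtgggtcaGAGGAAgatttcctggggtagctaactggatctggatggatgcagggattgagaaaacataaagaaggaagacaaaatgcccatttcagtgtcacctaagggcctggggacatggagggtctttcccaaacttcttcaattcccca
Mrc1, chr2:14229164-14229413, plus strand: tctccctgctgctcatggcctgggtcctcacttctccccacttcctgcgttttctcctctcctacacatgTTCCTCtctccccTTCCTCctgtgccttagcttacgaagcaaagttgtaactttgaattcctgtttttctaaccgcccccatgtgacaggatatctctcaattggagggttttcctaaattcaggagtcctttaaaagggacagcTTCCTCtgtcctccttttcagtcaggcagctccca
The RefSeq start of Cd36 lies 13896 bases inside the transcript span that the deposited table counts, and its 250 bases overlap no annotated exon, whereas the starts of the other 7 are those of the deposited transcripts. Of the Mrc1 bases, 22 fall in an annotated exon.

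The motifs were the core bound by the macrophage factor PU.1 (GAGGAA), the AP-1 site (TGANTCA), the core of the antioxidant response element (TGACNNNGC) and the half-site of Maf factors (TGCTGA), each searched on both strands of 300 bases, 250 before and 50 after the start. An AP-1 site and an antioxidant response element core can share letters, but no matches in these members did. The capitals in Cd36 are a Maf half-site, those in Marco a PU.1 core on the strand shown, and those in Mrc1 3 PU.1 cores on the other strand. The PU.1 core was present in 5 of the 8 members (Marco, Mrc1, Stab1, Axl and Olr1) and in 28.3% of 32851 promoters. The Maf half-site was present in Cd36 and Stab1 and in 19.5% of promoters, and the AP-1 site in Olr1 and in 7.81% of promoters. The antioxidant response element core was in none of the 8, beside 12.4% of promoters. The windows of Cd163 and Mertk held no match. A match is a description of the letters and no evidence of binding.

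The comparison of R+LE with +R asked what LE did in the presence of RANKL. Cd36 rose 5.19-fold by mean RPKM, ranking 6th among the rises of all tested genes. Marco, Stab1, Msr1 and Mertk rose by smaller amounts, and Mrc1 fell 2.295-fold by mean RPKM. Cd163, Olr1, Axl and Scarb1 did not pass the test. With the 2-fold minimum, Cd36 was the only member called higher, beside 1.46% of tested genes, and none was called lower, beside 1.78%. By adjusted p alone, 5 members were higher, beside 5.19% of tested genes, and 1 was lower, beside 6.86%. The median log2 fold change of the 10 was 0.49, beside -0.05 over all tested genes. This comparison shares the +R libraries with the preceding one, so a chance low or high value there enters both.

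**Figure D2:**
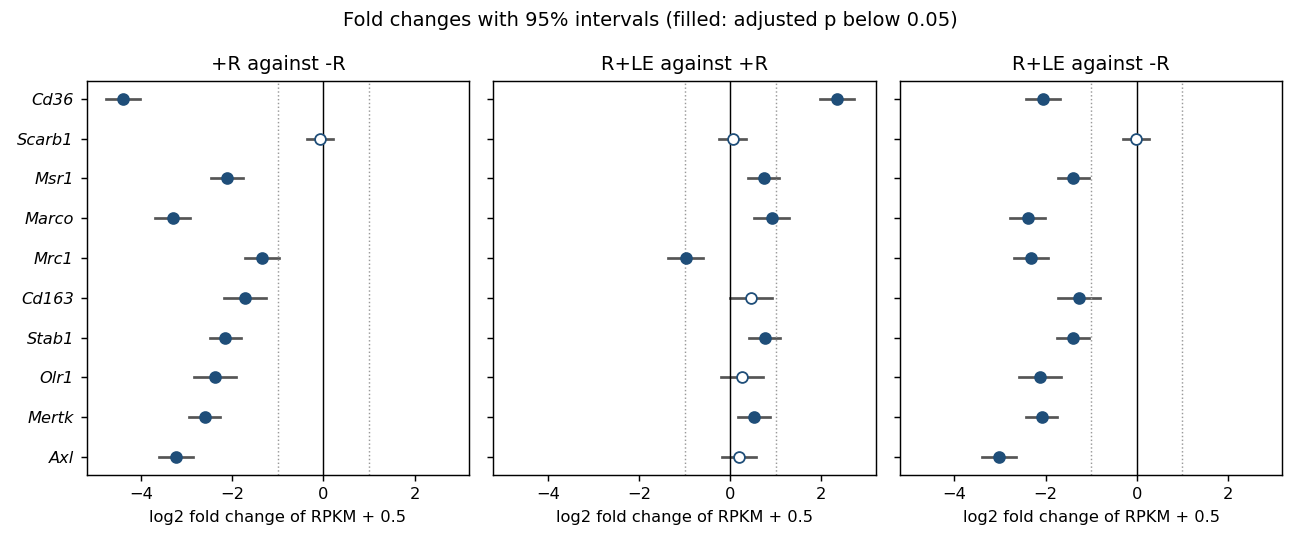
Log2 fold change of RPKM + 0.5 for the 10 receptors, for RANKL (left), LE in the presence of RANKL (middle) and both agents against M-CSF alone (right), with 95% intervals as bars, filled circles where the limma adjusted p is below 0.05 and dotted lines at a 2-fold change. In the middle panel Cd36 lies at 2.34 beyond the dotted line and Mrc1 at -0.97, on the other side of 0 from the rest.

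The log2 fold change of Cd36 with LE was 2.34 (SE 0.18, limma adjusted p = 6.89e-07), and both R+LE libraries lay more than 4-fold above both +R libraries. Marco, which measured 0.547 and 0.376 RPKM in +R and 1.16 and 1.46 in R+LE, rose 2.85-fold by mean RPKM and by 0.92 on the log2 scale with the added 0.5 (SE 0.18, limma adjusted p = 0.00303). Msr1 rose 1.67-fold, a log2 fold change of 0.73 (SE 0.16, limma adjusted p = 0.00696), and Stab1 rose 1.70-fold, a log2 fold change of 0.76 (SE 0.16, limma adjusted p = 0.00536). Each of these 4 had both R+LE libraries above both +R libraries.

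The TAM kinases showed smaller differences. Mertk was 1.52-fold higher with LE (log2 fold change 0.52, SE 0.16, limma adjusted p = 0.0461), below the 2-fold minimum, and its adjusted p stayed below 0.05 in 8 of the 18 alternative settings. Axl was 1.20-fold higher by the means, with overlapping libraries and a 95% interval of the log2 fold change of -0.17 to 0.58 (limma adjusted p = 0.564). Without +R replicate 1, Stab1 was at 0.53 (limma adjusted p = 0.107) and Mertk at 0.33 (limma adjusted p = 0.442), and without +R replicate 2, Msr1 was at 0.68 (limma adjusted p = 0.0860).

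Mrc1 moved the other way. Its R+LE libraries, 1.39 and 1.67 RPKM, both lay below its +R libraries, 2.95 and 4.08 RPKM, with a log2 fold change of -0.97 (SE 0.18, limma adjusted p = 0.00191). The 95% interval, -1.35 to -0.59, included the 2-fold threshold, and so did that of Marco, 0.53 to 1.30. In +R, Marco lay near the added 0.5 RPKM, so its interval is compressed and does not bound its change in RPKM. With an added 0.1 RPKM in place of 0.5, Mrc1 was at -1.14 and Marco at 1.34, and both were called.

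The remaining members did not pass the test. For Cd163 and Olr1, which lie near the added 0.5 RPKM, the fold changes and their intervals are on the compressed log2(RPKM + 0.5) scale and do not bound the change in RPKM. Cd163 was 2.04-fold higher by the means and its libraries did not overlap, but the log2 fold change of 0.46 had a 95% interval of 0.0026 to 0.92 and an adjusted p of 0.211 (limma). Fitted on recovered whole reads with voom, the log2 fold change of Cd163 was 0.99 (limma adjusted p = 0.0341) when scaled to mapped reads, a setting chosen after seeing the data, and 1.03 (limma adjusted p = 0.0570) with TMM scaling. Olr1 was 2.44-fold higher on 20 and 22 reads against 6 and 11, with a log2 fold change of 0.26 and a 95% interval of -0.21 to 0.72 (limma adjusted p = 0.562), and with voom its log2 fold change was 1.30 and 1.35 under the same scalings (limma adjusted p = 0.129 and 0.118). Scarb1 differed by 0.05, with a 95% interval of -0.24 to 0.35 (limma adjusted p = 0.879). Among the 10, 7 had R+LE libraries wholly above +R, beside 19.5% of tested genes, and 1 had them wholly below, beside 29.5%.

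Against -R, the comparison that asks how far R+LE stood from cells without RANKL, 9 of the 10 were called lower, beside 6.36% of tested genes, and 9 had R+LE libraries wholly below -R, beside 34.3%. Without Cd163 and Olr1, which entered the test through -R, both counts were 7 of 8. Msr1 and Stab1 were closest to their -R level after Scarb1, at 38.3% and 37.6% of the -R mean. Cd163 stood at 28.3%, Cd36 at 24.1%, Mertk at 21.2%, Mrc1 at 15.8%, Marco at 14.5%, Axl at 10.6% and Olr1 at 7.62%. The log2 fold changes of the 9 ran from -1.26 for Cd163 to -3.03 for Axl, and Cd36 was at -2.06 (SE 0.18, limma adjusted p = 2.98e-07). Scarb1 stood at 98.9% of its -R mean, with a log2 fold change of -0.02 and a 95% interval of -0.31 to 0.27 (limma adjusted p = 0.941).

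RPKM is per length of the 1 transcript counted for each gene, so levels set side by side within a library depend on that transcript. For Msr1 it held 1455 bases, of 6344 annotated exon bases, and for Scarb1 2506, of 8500. For Cd36 it held 3432, of 3499. This limit holds for the order, the summed levels, the shares and the ratios given below. In -R, Cd36 (504 RPKM) and Msr1 (496 RPKM) led with overlapping libraries, followed by Stab1 at 57.3, then Axl and Scarb1, which overlapped at 26.0 and 25.4. Mertk at 16.4, Mrc1 and Marco, which overlapped at 9.71 and 9.05, Olr1 at 2.50 and Cd163 at 2.11 came after them. In +R, Msr1 led alone at 113 RPKM, Scarb1 and Cd36 overlapped at 24.2 and 23.4, and Stab1 followed at 12.6. Mrc1, at 3.51 RPKM, was there above Mertk and Axl, which overlapped at 2.29 each. In R+LE, Msr1 at 189.6 and Cd36 at 121 led again, Scarb1 at 25.2 was above Stab1 at 21.5, and Mrc1 at 1.53 RPKM had dropped below Mertk at 3.48 and Axl at 2.75, overlapping Marco at 1.31.

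**Figure D3:**
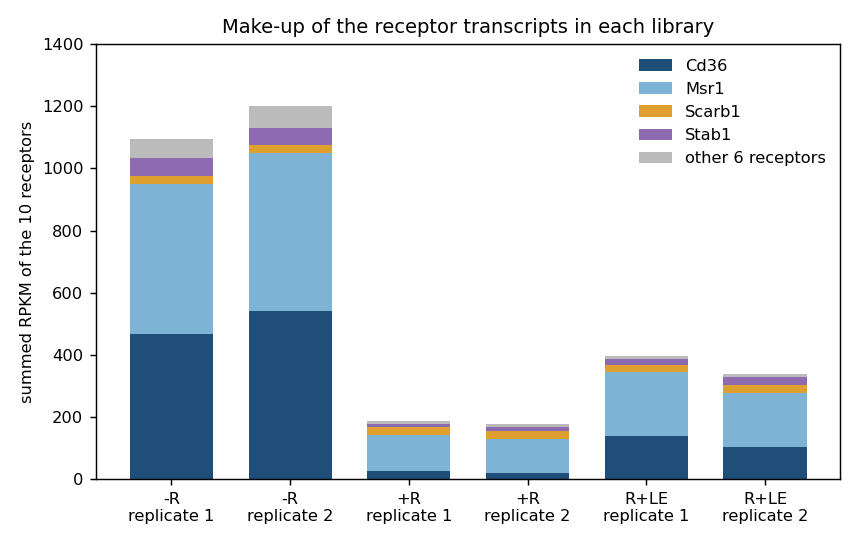
Summed RPKM of the 10 receptors in each of the 6 libraries, with Cd36, Msr1, Scarb1, Stab1 and the other 6 receptors as stacked parts and the axis starting at 0. The sums fall from 1094 and 1202 RPKM in -R to 186 and 179 in +R and reach 397 and 338 in R+LE, where the Cd36 part is again visible beside Msr1.

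The summed receptor level was 1094 and 1202 RPKM without RANKL, 186 and 179 with RANKL, and 397 and 338 with LE added. Cd36 made up 42.7 and 45.0% of it without RANKL, 13.7 and 11.9% with RANKL, and 35.2 and 30.5% once LE was added. Msr1 made up 44.1 and 42.3%, 63.2 and 61.1%, and 51.3 and 51.9% in the same order. The share of Scarb1 went from 2.37 and 2.07% without RANKL to 13.3 and 13.2% with RANKL and 6.00 and 7.84% once LE was added, at a level that stayed between 23.6 and 26.5 RPKM. Read as a ratio within a library, Msr1 stood at 1.03 and 0.940 times Cd36 without RANKL, 4.63 and 5.11 times with RANKL, and 1.46 and 1.70 times with LE as well.

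Some genes outside the set had a pattern over the 6 libraries close to that of a member, measured as the root mean square difference of log2(RPKM + 0.5) after centring each gene on its own mean. Nearest to Msr1 were Tm6sf1, at a distance of 0.03, and the nucleotide receptor P2ry6, at 0.06. Nearest to Marco was the transcription factor Klf2, at 0.08, whose mean was 48.6 RPKM without RANKL, 4.70 with it and 8.70 when LE was added. Marco itself averaged 9.05, 0.46 and 1.31 RPKM in the same order. Nearest to Mrc1 was the cholesterol exporter Abca1, at 0.18, with means of 19.2, 9.36 and 3.79 RPKM in the same order. The nearest genes lay at 0.03 for Cd163 (Trerf1), 0.02 for Scarb1 (Apbb3), 0.09 for Stab1 (Tle3), 0.11 for Mertk and 0.07 for Olr1 (Oasl1 for both), and 0.16 for Axl (Ms4a6b). No gene came as near to Cd36, where the closest, Angptl2, lay at 0.28 with mean RPKM of 28.2, 1.31 and 5.65. Within the set, Mertk and Olr1 were 0.16 apart, Msr1 and Stab1 0.21 apart, and Scarb1 was at least 0.71 from any other member. The added 0.5 RPKM compresses low genes such as Olr1, Cd163 and Marco, so their distances do not measure likeness in RPKM. By mean RPKM, Olr1 fell 32.1-fold with RANKL and Mertk 7.17-fold. These distances are a description over 6 libraries.

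The other genes of apoptotic cell uptake were read from lists by role, and counts in them are of called genes out of those tested. Of 10 bridging molecules, RANKL left 7 lower and 2 higher, beside 8.92% and 6.58% of all tested genes, and the median log2 fold change was -1.54. Gas6, the ligand of Mertk and Axl, fell from 26.4 ± 1.14 RPKM in -R to 2.92 ± 0.232 in +R (SD, n = 2), and protein S (Pros1), C1qa, C1qb, C1qc, Thbs1 and Lgals3 fell as well. Mfge8, which bridges phosphatidylserine to integrins, rose from 2.02 to 7.28 RPKM, and its relative Edil3 rose from 0.206 to 3.42 RPKM. With LE none of the 10 was called higher, and Edil3 was called lower, at 1.29 RPKM, beside 1.46% and 1.78% of all tested genes. By adjusted p alone, 2 of the 10 rose with LE, beside 5.19% of all tested genes, and 2 fell, beside 6.86%. Those that rose were Gas6, to 4.30 RPKM, and Thbs1, to 2.97 RPKM. Those that fell were Edil3 and C1qb, the latter from 13.9 to 9.19 RPKM (log2 fold change -0.56, limma adjusted p = 0.0192).

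Of 15 other receptors for phosphatidylserine or apoptotic cells, 9 were tested. With RANKL 6 were lower and 1 higher, beside 8.92% and 6.58% of all tested genes. Cd300lf fell from 12.3 to 0.483 RPKM, Trem2 from 209 to 54.4, and Cd300a, Havcr2 (TIM-3), Itgb5 and the lipoprotein receptor relative Lrp1 fell as well. Itgb3, the integrin subunit that marks osteoclasts, rose from 0.193 to 33.3 RPKM. When LE was added, 2 of the 9 were called higher and 1 lower, beside 1.46% and 1.78% of all tested genes. Cd300a rose to 67.3 RPKM from 20.5 (log2 fold change 1.70, SE 0.16, limma adjusted p = 4.71e-06) and Havcr2 to 18.1 RPKM from 6.53, while Itgb3 was called lower, at 11.6 RPKM. The third TAM kinase, Tyro3, and the receptors Timd4, Stab2, Adgrb1, Havcr1 and Ager stayed under the minimum, with at most 0.786 RPKM in any library.

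**Figure D4:**
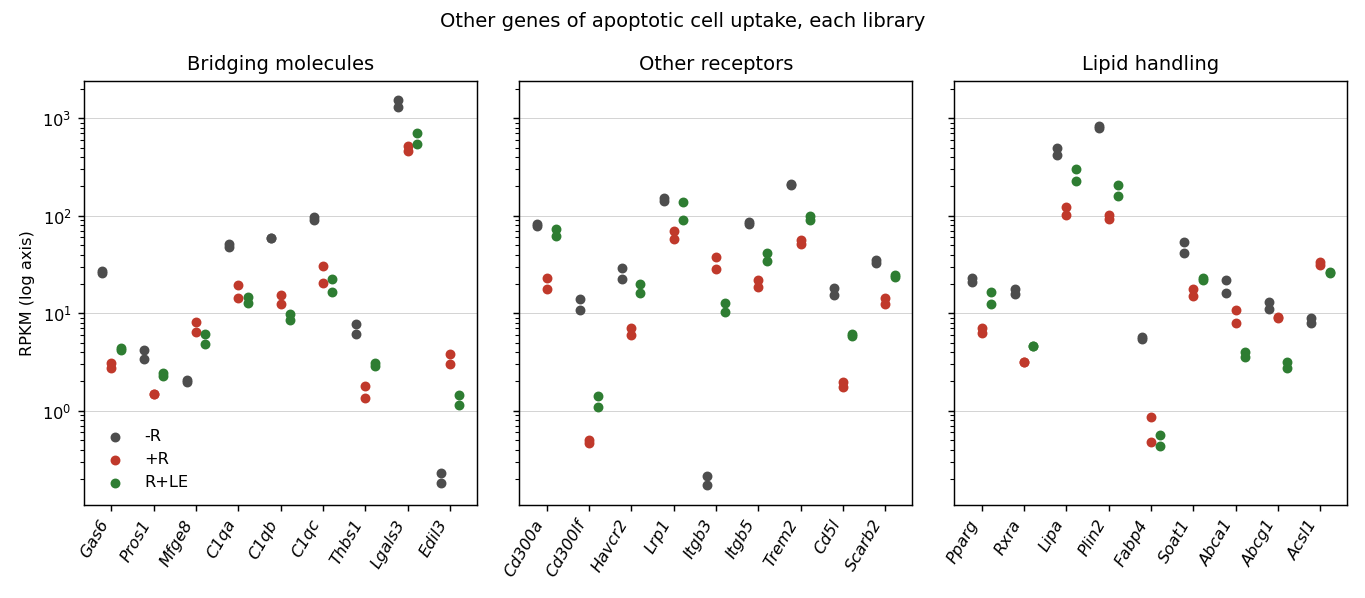
RPKM (log axis) of genes called in at least 1 comparison among bridging molecules, other receptors and lipid handling, with 1 point per library in -R, +R and R+LE. Cd300a in R+LE lies near its -R level, Itgb3 is at 0.193 RPKM in -R and 33.3 in +R, and Abca1 and Abcg1 are lowest in R+LE.

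Among 15 other scavenger receptors, 10 were tested, with 2 called lower and 1 higher after RANKL, beside 8.92% and 6.58% of all tested genes. The 2 lower genes were Cd5l, a secreted macrophage protein of the scavenger receptor cysteine-rich family, which fell from 16.8 to 1.85 RPKM, and the lysosomal class B receptor Scarb2, which fell from 33.8 to 13.3. With LE, Cd5l was called higher, at 6.04 RPKM, beside 1.46% of all tested genes, and none of the 10 was called lower, beside 1.78%. Of 14 genes of engulfment signalling, 13 were tested, with 3 called lower and 1 higher after RANKL, beside the same 8.92% and 6.58%. The guanine exchange genes Vav1 and Vav3 and the adaptor Elmo2 were lower with RANKL. The kinase Src, also needed for the osteoclast ruffled border, rose from 1.34 to 35.0 RPKM. With LE, Src was the only gene of the 13 called lower, at 10.3 RPKM, beside 1.78% of all tested genes. None of the 13 was called higher, beside 1.46%.

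Of 18 genes that handle lipid after uptake, 7 were lower and 1 higher with RANKL, beside 8.92% and 6.58% of all tested genes. The lipid droplet gene Plin2 fell from 820 to 97.1 RPKM, the lysosomal acid lipase Lipa from 460 to 112, and Pparg, a nuclear receptor that acts on Cd36, from 22.0 to 6.64, along with Fabp4, Rxra, Soat1 and Npc1. The acyl-CoA synthetase Acsl1 rose from 8.48 to 32.6 RPKM. With LE, Pparg at 14.5 RPKM and Lipa at 265 RPKM were called higher, beside 1.46% of all tested genes. The cholesterol exporters Abca1, at 3.79 RPKM, and Abcg1, which went from 8.98 to 2.95 RPKM, were called lower, beside 1.78%. Among 11 regulators known to act on members, 2 were called lower with RANKL, Maf among them, and 1, Socs3, was called higher. The shares of all tested genes were the same 8.92% and 6.58%. With LE none was called in either direction, beside 1.46% higher and 1.78% lower of all tested genes. By adjusted p alone 2 were higher, the sheddase Adam10 among them, beside 5.19%, and none was lower, beside 6.86%. Median log2 fold changes with LE were -0.22 for the bridging molecules, 0.82 for the other receptors, 0.06 for the other scavenger receptors, 0.09 for engulfment signalling, -0.11 for lipid handling and 0.22 for the regulators, beside -0.05 over all tested genes. With RANKL the medians of the same lists were -1.54, -1.90, -0.73, -0.39, -0.62 and -0.33, beside 0.05.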

How the data were processed

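RNA-seq measured gene expression in 6 libraries, grouped by the condition in the sample labels. The authors aligned reads to mm10 (TopHat in the study's methods, HISAT2 in the submitters' processing notes, versions not given in the sources used here), counted reads on the exons of 1 transcript per gene with HOMER on either strand, and deposited RPKM, which the column titles call FPKM. Of the symbols, 26 stood as dates and all 26 were restored from transcript identifiers.

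RPKM values are not counts, so log2(RPKM + 0.5) was fitted with limma 3.58.1 in R 4.3.3 (3 group means, variance trend, Benjamini-Hochberg adjustment over the 11595 genes that averaged 0.5 RPKM or more). A change was called at an adjusted p below 0.05 and 2-fold. An exact permutation test of 2 against 2 libraries cannot go below 0.333. Whole reads, recovered from RPKM and transcript length, gave the depth (29390436 to 34846201 mapped reads). Tables used pandas 2.3.3 and numpy 2.4.6 under Python 3.11.15, and figures matplotlib 3.10.9. The scripts were tested on simulated data.

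The members and gene lists were chosen with earlier results of these data known. The text names the 10 members, the nearest gene of each, the second nearest of Msr1, and list genes called in at least 1 comparison. Tyro3, Timd4, Stab2, Adgrb1, Havcr1, Ager and Adam10, and the cell type markers, were named outside that rule after their values were seen. Alternatives changed the pseudocount, filter, scaling, variance model, replicate block, libraries and test. Some genes of the lists are not reported here.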

Additional observations from a re-analysis of the deposited data

How the results depend on the processing

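Every member was refitted under 17 other settings and 1 chosen after seeing the data, voom on recovered reads scaled to mapped reads. For +R against -R and R+LE against -R, the count of members called lower was 8 or 9 in each. For R+LE against +R, 2 members (Cd36 and Marco) were called higher and 1 (Mrc1) lower with a pseudocount of 0.1, with voom and TMM scaling on recovered reads, and with voom scaled to mapped reads. Voom scaled to mapped reads put 6 members past the adjusted p in the higher direction, with Cd163 added at 0.99. Without a filter on low values, which tests 18427 genes, 1 member (Cd36) was past the adjusted p in the higher direction and 0 in the lower. Leaving out each library in turn gave 1 to 2 called higher, 0 to 1 called lower, and 3 to 4 past the adjusted p in the higher direction. Where a group was left with 1 library, that library was assumed to vary like the other groups. Scarb1 changed sign for R+LE against -R, to 0.038 when centred on the median, 0.096 after quantile normalization and 0.058 without Rn45s in the depth, and ranged from -0.091 to 0.058 when libraries were left out. For R+LE against +R, leaving out libraries gave Scarb1 -0.020 to 0.13. It passed no test under any of these. The cause of these changes was not tested. Olr1 was not tested at a minimum mean of 1 RPKM. Between libraries of the same replicate number, the correlations of deviations from the condition means were -0.05, 0.11 and 0.25. With 2 libraries per condition and no reference value, they cannot settle whether the replicate numbers pair the libraries. With the replicate number as a block the counts were 9, 1 and 0 called and 5 and 1 past the adjusted p, as without it. Depth limits Olr1, at 6 and 11 reads in +R.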
